A study of Homo sapiens with 12 samples.

Results

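The nucleic acid sensors and adaptors described here are 8 genes chosen by name: the RIG-I-like receptors DDX58 (the symbol under which RIG-I is listed), IFIH1 (MDA5) and DHX58 (LGP2), the endosomal receptor TLR3, the kinase EIF2AK2 (PKR), the Z-form nucleic acid sensor ZBP1, and the adaptors MAVS and TICAM1 (TRIF). The PMA experiment listed 7 of the 8 among 16101 genes, and ZBP1 was not listed in it. All 8 were among the 15991 genes listed in the ConA experiment. The rule names the genes and uses no threshold on a measured value, but they were chosen with earlier results of these data known.

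Polyadenylated RNA of HT1080 cells, a human fibrosarcoma line of wild-type genotype, was sequenced in 12 libraries, 3 in each of 4 groups. In the first experiment, cells exposed to PMA (phorbol 12-myristate 13-acetate, which activates protein kinase C) at 40 nM for 24 h were compared with control libraries 1 to 3, and in the second, cells exposed to 40 µg/mL concanavalin A (ConA), a mannose-binding lectin of the jack bean, for 24 h were compared with control libraries 4 to 6. Every group had been seeded in biotin-depleted medium with 10% serum and was moved after 3 days to biotin-depleted medium with 1% serum, so the controls shared the lowered serum. The sources do not say whether libraries of a group came from separate cultures, so p-values measure only the spread between these libraries, which may be technical, and treatment and experiment cannot be told apart in any comparison of PMA with ConA.

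RIG-I and MDA5 are helicases that bind viral RNA in the cytosol and pass the signal to MAVS, an adaptor on the outer mitochondrial membrane, whereas LGP2 lacks the signalling domains of its relatives and tunes their activity. TLR3 binds double-stranded RNA in endosomes and signals through TICAM1, and both adaptors lead to the kinases that activate IRF3 and NF-kB and so to type I interferon. Several of the sensors are themselves interferon-stimulated genes, commonly through an interferon-stimulated response element (ISRE) near the start site, which the factors ISGF3 and IRF bind.

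Because several members moved together, the promoters were read from the RefSeq table (GRCh38.p14, 250 bases before to 50 after the start site), which matched 6 of the 8 by symbol, DDX58 under its later symbol RIGI. DHX58 and ZBP1 had no entry. Stretches of 80 bases are printed 5′ to 3′ on the strand of the gene, with capitals for at most 1 motif in each. Capitals mark an ISRE (GAAA and GAAA parted by any 2 bases, in TLR3, IFIH1 and EIF2AK2), matches to the shorter IRF motif AANNGAAA (DDX58), or the NF-kB motif (GGGA and TTTCC parted by any 1 base, in TICAM1). Matches to other motifs stay in lower case, and some matches lie outside the stretches. The stretches of TLR3 and EIF2AK2 run across the start site, and those of DDX58, IFIH1, MAVS and TICAM1 lie wholly upstream. The DDX58 and TICAM1 stretches begin at bases -202 and -120. The MAVS stretch held no match and has no capitals. All motifs were searched on both strands, and an ISRE always contains the shorter IRF motif.
TLR3, chr4:186069082-186069161, plus strand: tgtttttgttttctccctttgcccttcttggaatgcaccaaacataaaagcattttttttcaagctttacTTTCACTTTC
DDX58, chr9:32526319-32526398, minus strand: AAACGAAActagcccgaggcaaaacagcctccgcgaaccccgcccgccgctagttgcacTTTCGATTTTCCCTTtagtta
IFIH1, chr2:162318696-162318775, minus strand: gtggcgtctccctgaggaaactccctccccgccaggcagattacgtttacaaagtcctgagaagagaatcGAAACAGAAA
EIF2AK2, chr2:37156977-37157056, minus strand: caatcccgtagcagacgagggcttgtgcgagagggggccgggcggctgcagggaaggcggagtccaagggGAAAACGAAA
MAVS, chr20:3846754-3846833, plus strand: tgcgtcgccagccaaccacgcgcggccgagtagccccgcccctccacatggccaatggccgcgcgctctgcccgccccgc
TICAM1, chr19:4831753-4831832, minus strand: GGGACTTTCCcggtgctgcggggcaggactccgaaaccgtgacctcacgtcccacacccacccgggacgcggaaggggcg

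An ISRE spanned the start site in TLR3 (bases -4 to 6) and in EIF2AK2 (bases -6 to 4). IFIH1 had 3 ISRE matches, of which the nearest to the start lay at bases -21 to -12 and the other two overlapped between -159 and -144. DDX58 had no ISRE and 3 matches to the shorter IRF motif, at -202 to -195, -143 to -136 and -136 to -129. The NF-kB motif was present in DDX58 and in IFIH1, in both at bases -76 to -67, and in TICAM1 at -120 to -111. TLR3 also had 2 matches to the STAT motif TTCNNNGAA, and none of the 6 promoters searched had the AP-1 motif TGANTCA. Of all 35116 promoters in the table, 3.57% held an ISRE, 22.8% the shorter IRF motif, 7.66% the STAT motif, 0.558% the NF-kB motif and 7.71% the AP-1 motif. These matches describe letters in the windows searched, and binding of a factor was not measured.

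The deposited values are normalized counts, that is, estimated reads per gene divided by 1 factor for each library within its own table. Libraries held 33648921 to 45588012 estimated reads on genes, and a gene is listed in a table where any of its libraries reached about 10 estimated reads. A gene was called when its log2 fold change was at least 1 in size and its adjusted p at most 0.0001, by limma on log2(normalized count + 1) with Benjamini-Hochberg adjustment over every gene tested. By this rule 8.65% of 15153 genes were called with PMA (4.03% higher, 4.61% lower), and 8.71% of 15139 with ConA (5.83% higher, 2.88% lower). Among 16 mesenchymal markers, all were listed for PMA and 15 for ConA. Markers of other cell types were also present: 16 of 18 T and NK cell markers were listed for PMA, with a summed level of 1891 to 2139 in the controls and 5316 to 6218 with PMA. Most of that rise was in IL7R, averaging 329 and 3021, and CD3E averaged 116.8 and 202.9. Of the 16 listed, 2 were called higher with PMA. The ConA experiment listed 4 of these 18 (451 to 584 in the controls and 4673 to 5475 with ConA, mostly IL7R, at 441 and 5114), and PTPRC and CD3E were not listed there. The part of such transcripts in the results below was not tested, and in RNA from a whole culture fewer cells of a type and less RNA per cell cannot be told apart.

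Every sensor transcript rose with ConA, from 3.65-fold for EIF2AK2 to 17.97-fold for IFIH1 among the 5 that controls expressed, and ZBP1 rose from about 1 read per control library to a mean of 356 normalized counts. With PMA none of the 5 listed sensors rose. TLR3 fell to 29.9% of its control level, and DDX58, IFIH1, DHX58 and EIF2AK2 had lower values short of a 2-fold change. Of the adaptors, TICAM1 was higher with both agents, by less than 2-fold, and MAVS stayed within 15% of its control mean in both. In counts, 1 of 7 members was called with PMA (lower, against a background of 8.65% called) and 6 of 8 with ConA (all higher, against 8.71%). ZBP1 is among the 6, and it was listed and tested only through its ConA libraries, so that selection fixed its call. Where the fold is left aside and only the adjusted p is asked of a gene, a count chosen after the values were seen, 4 members were lower and 1 higher with PMA (background 11.2% lower, 14.7% higher and 25.8% in all), and 7 were higher with ConA (background 15.8% higher, 14.7% lower and 30.5% in all). The count of 5 with PMA was 2 without control library 1, PMA library 2 or PMA library 3, 3 without PMA library 1, and 1 without the variance trend. The count of 7 with ConA was 6 without the variance trend, without ConA library 3, and in 1 fit of all 12 libraries, which leaves out ZBP1.

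**Figure D1:**
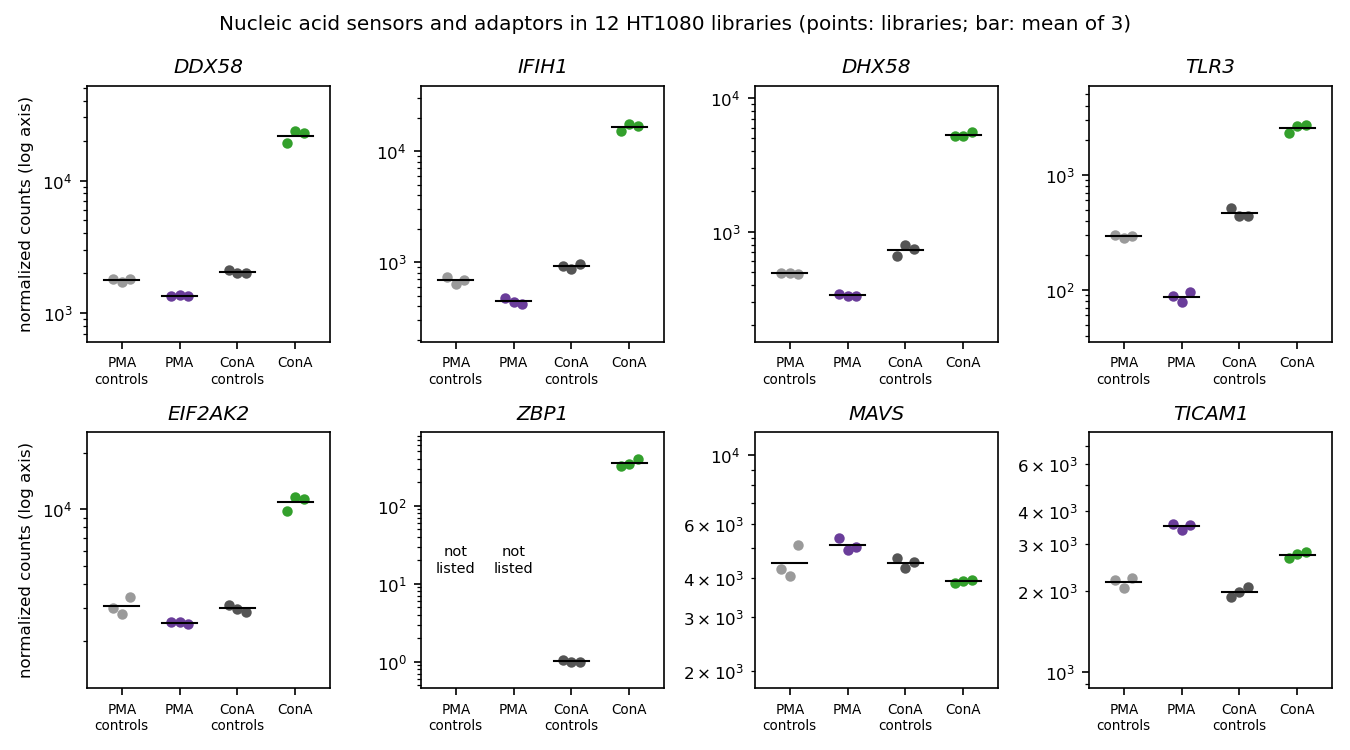
Normalized counts of the 8 transcripts on log axes in each of the 12 libraries (points) with the mean of 3 (bar). All 6 sensors lie far above their controls with ConA, TLR3 alone lies far below them with PMA, and ZBP1 was not listed in the PMA experiment.

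DDX58 encodes RIG-I, which recognises short blunt-ended RNA bearing a 5′ triphosphate. Its normalized counts were 1821, 1722 and 1814 in the PMA controls and 1336, 1377 and 1342 with PMA, and 2126, 2023 and 1998 in the ConA controls and 19234, 23499 and 22664 with ConA. The treated and control libraries did not overlap in either experiment. With ConA the transcript rose 10.6-fold, a log2 change of 3.41 (SE 0.069, 95% interval 3.26 to 3.55, limma adjusted p = 1.74e-14). With PMA it stood at 75.7% of control, a log2 change of -0.40 (SE 0.045, 95% interval -0.50 to -0.30, adjusted p = 1.29e-05), which is short of the fold threshold. Per kb of transcript DDX58 had 410.2 ± 12.8 normalized counts in the PMA controls and 471 ± 15.5 in the ConA controls (SD, n = 3), the highest among the sensors where EIF2AK2 is divided by its transcript of 10042 bases (304 and 297), and below EIF2AK2 where that gene is divided by its transcript of 4343 bases (703 and 686).

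IFIH1 encodes MDA5, the sensor of long double-stranded RNA. The PMA controls had 734, 643 and 696 normalized counts and the PMA libraries 472, 438 and 423. The ConA controls had 916, 864 and 968, and the ConA libraries 15140.2, 17519.7 and 16806. Again no treated library lay within the range of its controls. The rise with ConA was the steepest among members that controls clearly expressed, a log2 change of 4.17 (SE 0.064, 95% interval 4.03 to 4.31, adjusted p = 8.48e-16), and ranked 104 among all rises by fold. With PMA, IFIH1 stood at 64.3% of control (log2 -0.63, SE 0.072, 95% interval -0.79 to -0.48, adjusted p = 1.38e-05), also short of 2-fold.

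DHX58, the regulatory member of the family, had 487, 489 and 487 normalized counts in the PMA controls and 342, 332 and 330.5 with PMA. In the ConA experiment it went from 657, 793 and 743 to 5197, 5199.9 and 5577. The control range of the first experiment was narrower than that of the second, and treated libraries were apart from controls in both. The rise with ConA was 7.29-fold (log2 2.87, SE 0.070, 95% interval 2.72 to 3.02, adjusted p = 1.79e-13). With PMA the level was 68.7% of control (log2 -0.54, SE 0.064, 95% interval -0.68 to -0.40, adjusted p = 2.15e-05).

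Within the family the balance between members shifted with ConA. The level of IFIH1 per kb relative to DDX58 in the same library averaged 0.542 ± 0.0386 (SD, n = 3) in the controls and 0.918 ± 0.0306 with ConA. How close the MDA5 transcript came to the RIG-I transcript depends on the length taken. Per kb of all exon bases of the gene, IFIH1 averaged 3914 with ConA and DDX58 5008. The ratio of DHX58 to DDX58 moved the other way, from 0.595 ± 0.0723 to 0.409 ± 0.0407. With PMA both ratios were a little lower, 0.468 ± 0.0182 and 0.398 ± 0.0260 for IFIH1, and 0.454 ± 0.0158 and 0.412 ± 0.0130 for DHX58. Treated and control libraries did not overlap in any of these 4 comparisons, each with a two-sided exact permutation p of 0.1, the smallest that 3 against 3 libraries allow.

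TLR3, the endosomal receptor for double-stranded RNA, was the only member called in both experiments, in opposite directions. The PMA controls had 301, 284 and 295 normalized counts, and the PMA libraries 89.4, 77.9 and 95.8, which rest on 77, 82 and 80 estimated reads. The ConA controls had 519, 443 and 439 and the ConA libraries 2329, 2684 and 2691. All PMA libraries lay far below and all ConA libraries far above their controls. The fall with PMA was a log2 change of -1.74 (SE 0.11, 95% interval -1.97 to -1.50, adjusted p = 8.65e-08). With ConA the rise was 5.49-fold (log2 2.46, SE 0.081, 95% interval 2.28 to 2.63, adjusted p = 5.43e-12). A call lower with PMA together with a call higher with ConA was made for 37 of the 14661 genes tested in both, or 0.252%.

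TICAM1 encodes TRIF, the adaptor through which TLR3 signals. Its normalized counts were 2197, 2056 and 2247 in the PMA controls and 3565, 3384 and 3548 with PMA. The ConA controls had 1908, 1991 and 2078 and the ConA libraries 2667, 2746 and 2809.96. Treated libraries were higher than every control in both experiments. The level reached 161% of control with PMA (log2 0.69, SE 0.046, 95% interval 0.59 to 0.79, adjusted p = 1.48e-07) and 138% with ConA (log2 0.46, SE 0.056, 95% interval 0.34 to 0.58, adjusted p = 5.68e-06), in both cases below the fold threshold. TICAM1 was the only member past the adjusted p in the same direction with both agents, as were 4.61% of genes upwards. It did not stay past it in every alternative: the highest limma adjusted p was 1.53e-04 with PMA and 7.93e-04 with ConA. Receptor and adaptor moved in opposite directions with PMA: the level of TLR3 per kb relative to TICAM1 was 0.0603 ± 0.00166 (SD, n = 3) in the controls and 0.0111 ± 0.000882 with PMA, whereas it was 0.105 ± 0.0144 and 0.417 ± 0.0246 in the ConA experiment. The exact permutation p was 0.1 for both.

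MAVS is the mitochondrial adaptor shared by RIG-I and MDA5. The PMA controls had 4283, 4070.1 and 5110.1 normalized counts and the PMA libraries 5389.95, 4922 and 5063, so that the highest control lay within the treated range. The ConA controls had 4643, 4305 and 4528, all above the ConA libraries at 3876, 3934 and 3954. The log2 change was 0.20 with PMA (SE 0.073, 95% interval 0.04 to 0.36, adjusted p = 0.0341) and -0.20 with ConA (SE 0.051, 95% interval -0.31 to -0.09, adjusted p = 0.00402), and neither was called. MAVS was the one member whose groups overlapped, with PMA. With PMA the groups were apart for 6 of 7 members, 5 lower and 1 higher, where 67.9% of all genes tested were apart (33.1% lower, 34.8% higher). With ConA they were apart for 8 of 8, 7 higher and MAVS lower, where 69.3% of all genes were (34.9% higher, 34.4% lower). ZBP1, listed only through its ConA libraries, is among the 7. The summed level of DDX58, IFIH1 and DHX58 per kb, set against MAVS in the same library, went from 2.08 ± 0.217 to 1.29 ± 0.0544 in the PMA experiment and from 2.62 ± 0.118 to 34.7 ± 2.33 in the ConA experiment (SD, n = 3, exact permutation p = 0.1 for each).

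EIF2AK2 encodes PKR, a kinase that double-stranded RNA activates and that then halts translation through eIF2alpha. The PMA controls had 2976, 2764 and 3414 normalized counts and the PMA libraries 2514, 2507 and 2464. The ConA controls had 3119.99, 2962 and 2856 and the ConA libraries 9734, 11612 and 11343.5. It had the smallest called rise among the members, 3.65-fold (log2 1.87, SE 0.067, 95% interval 1.72 to 2.01, adjusted p = 1.32e-11). With PMA, EIF2AK2 stood at 81.8% of control without overlap between groups (log2 -0.28, SE 0.065, 95% interval -0.43 to -0.14, adjusted p = 0.0027), and did not pass. Its exons share 401 bases, 3.9% of their length, with a processed pseudogene on the opposite strand and 35 bases with GPATCH11, and how such reads were assigned is not given in the sources used here.

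ZBP1, which binds Z-form RNA and DNA and can start necroptosis through RIPK3, had 1.04, 1.00 and 1.00 normalized counts in the ConA controls, about 1 estimated read in each library. With ConA it had 326, 344 and 398. No control library came near a treated one. The estimated reads summed to 3 in the controls and 1098 with ConA, a ratio of 353 with an exact 95% interval of 120.4 to 1713, which covers counting error only. The fitted log2 change was 7.46 (SE 0.24, limma adjusted p = 3.76e-12), and its size depends on the pseudocount, ranging from 5.05 to 8.31 over the alternatives. By that value ZBP1 ranked 7 among rises with ConA. ZBP1 was listed and tested only through its ConA libraries, so selection fixed the direction of this result. Its p, rank and interval describe a selected gene and are no test of a rise. Even so, its level with ConA, 162 normalized counts per kb, was below that of every other member in the same libraries.

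**Figure D2:**
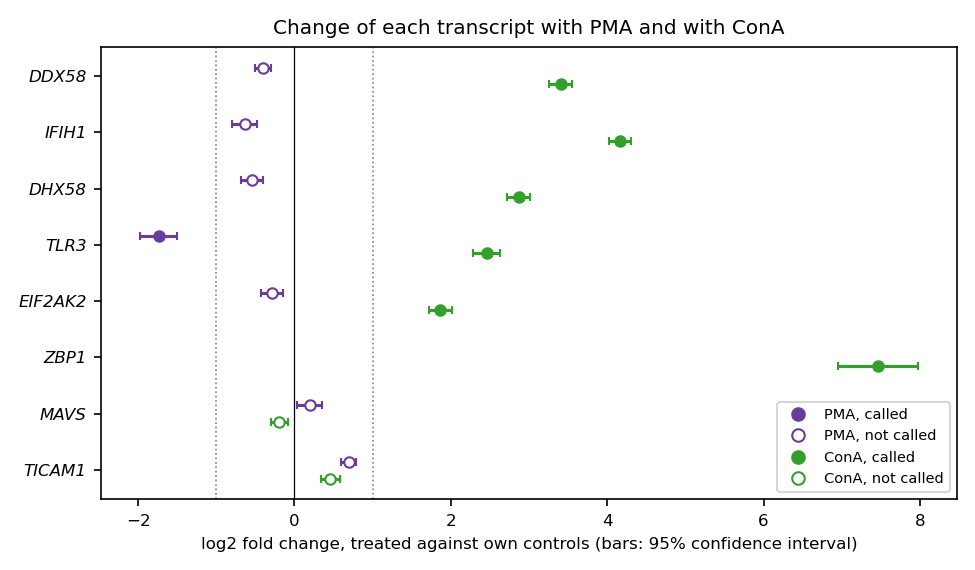
Log2 fold change of each transcript against the controls of its own experiment, with 95% confidence intervals, filled where called and with dotted lines at 1 and -1. The 6 sensors lie to the right with ConA, and with PMA TLR3 alone passes the dotted line.

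The change with ConA was then subtracted from the change with PMA, each against its own controls, in 1 limma model over all 12 libraries, for the 7 members listed in both experiments. Of these, 5 were called, all in the direction of a lower change with PMA, where 10.6% of 14661 genes were called, 6.9% in that direction and 3.73% in the other. The difference was -4.80 for IFIH1 (SE 0.096, 95% interval -5.00 to -4.60), -4.19 for TLR3 (SE 0.13, interval -4.47 to -3.92) and -3.81 for DDX58 (SE 0.086, interval -3.99 to -3.62). It was -3.41 for DHX58 (SE 0.093, interval -3.60 to -3.21) and -2.15 for EIF2AK2 (SE 0.10, interval -2.37 to -1.94), with adjusted p between 6.06e-17 and 7.32e-12 for all 5. The adaptors differed far less between the agents, by 0.39 for MAVS (interval 0.20 to 0.59, adjusted p = 0.00145) and 0.23 for TICAM1 (interval 0.08 to 0.38, adjusted p = 0.0086), and neither was called. TLR3, DDX58, IFIH1 and DHX58 were past the adjusted p at any fold downwards with PMA and upwards with ConA, as were 1.25% of the genes tested in both. This count was chosen after the values were seen, and of these 4 only TLR3 stayed past it with PMA in every alternative. In the plot of all genes tested in both experiments, the 5 sensors occupy the upper left and the adaptors lie within the central mass.

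**Figure D3:**
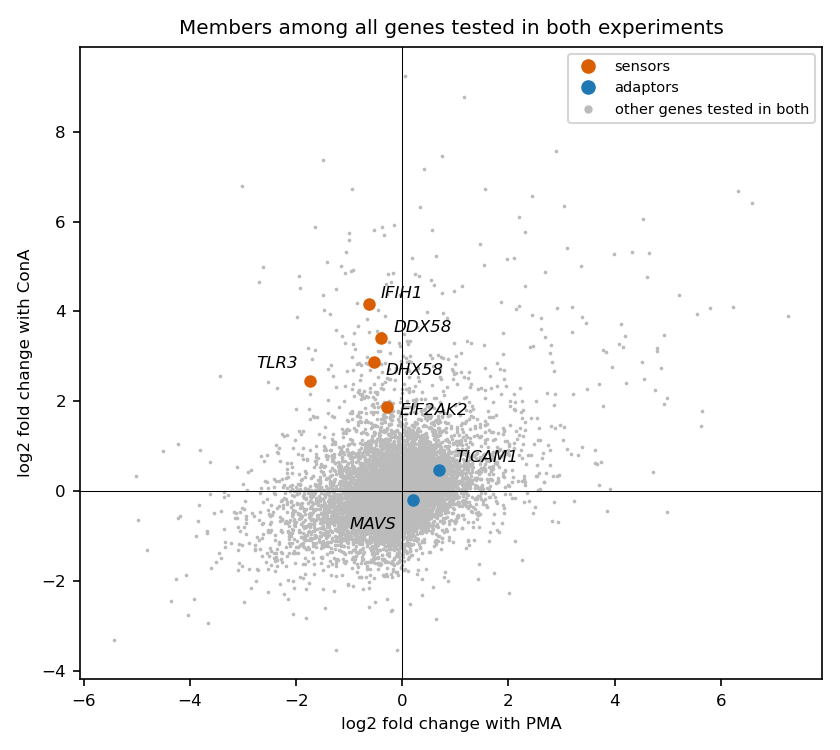
Log2 fold change with PMA (horizontal) and with ConA (vertical) for the 14661 genes tested in both experiments (grey), with 5 sensors in orange and 2 adaptors in blue. The sensors have positive values with ConA and negative values with PMA.

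The members' median log2 change was -0.40 with PMA and 2.66 with ConA, where the median over all genes tested was 0.0029 and -0.0022. With ConA this median is the midpoint of TLR3 and DHX58. It does not depend on the fitted size of ZBP1, but it does depend on ZBP1 being counted, which was tested only through its ConA libraries. Over the 7 members listed in both experiments the middle value with ConA is that of TLR3, 2.46. The make-up of the 7 transcripts listed in both experiments was followed as each one's share of their summed level per kb in a library. TICAM1 held the largest share in both control groups, 34.7% and 29.7%, followed by DDX58 at 17.6% and 18.8% and MAVS at 16.4% and 15.3%. With PMA the share of TICAM1 was 50.9% and that of TLR3 went from 2.09% to 0.567%. With ConA, DDX58 (34.5%) and IFIH1 (31.6%) held most of the total, and TICAM1 and MAVS were at 7.08% and 2.32%. TLR3 kept nearly the same share, 3.10% and 2.94%. The sum itself went from 2334 ± 131 to 2570.2 ± 57.3 per kb in the PMA experiment and from 2507 ± 22.8 to 14499.9 ± 1047 in the ConA experiment (SD, n = 3). The order of EIF2AK2 in these shares depends on the transcript taken for its length, since its level in the PMA controls was 304 per kb on a transcript of 10042 bases and 703 on one of 4343.

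**Figure D4:**
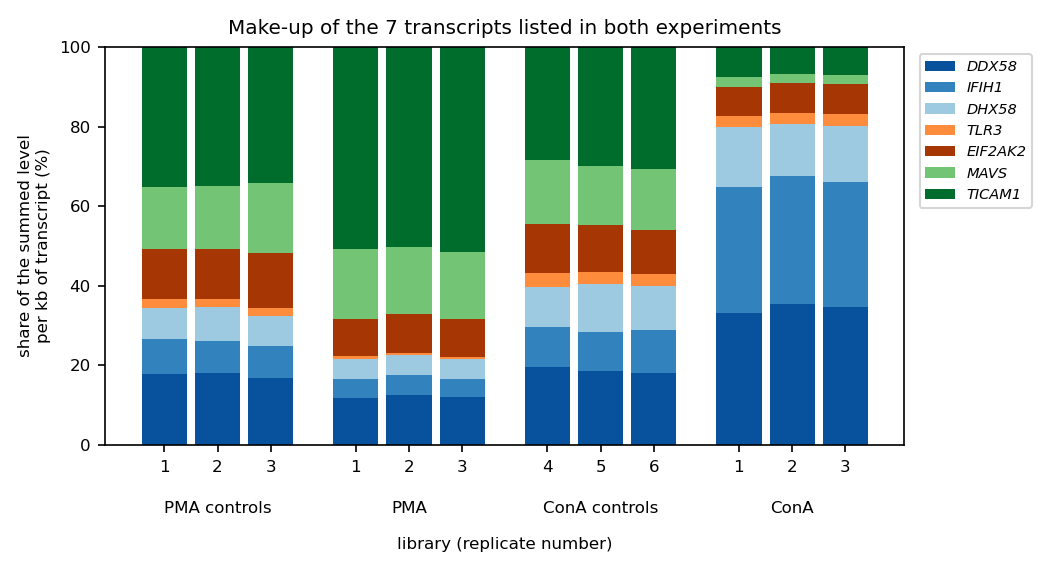
Share of each transcript in the summed level per kb of the 7 listed in both experiments, in percent, with 1 bar per library. TICAM1 takes about 30% to 51% of the bar in controls and with PMA, and DDX58 with IFIH1 about 66% with ConA.

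The genes around the sensors were counted over 6 lists, against backgrounds of 4.03% of all genes called higher and 4.61% lower with PMA, and 5.83% higher and 2.88% lower with ConA. Of the kinases and scaffolds downstream of the adaptors, none of 21 was called with PMA (list median 0.23, range -0.41 to 0.97), and 2 of 20 rose with ConA (median 0.34, background 5.83%), or 1 without the variance trend, a count too small to set the list apart from that background. These were IKBKE, an IRF3 kinase, from 1614 ± 31.8 to 3830 ± 166 (SD, n = 3, log2 1.25, adjusted p = 1.54e-10), and CASP8 (log2 1.14), the latter named after its value was seen. Modulators of the RIG-I-like receptors had 2 of 26 lower with PMA and 8 of 27 higher with ConA, with list medians of -0.09 and 0.07. The count with PMA is too small to set the list apart from 4.61%, and it was 1 under quantile normalization and without the variance trend. ISG15, a ubiquitin-like modifier, was the extreme with both agents: it fell from 2691 ± 182 to 1218 ± 104 with PMA (log2 -1.14, adjusted p = 6.21e-08) and rose from 3691 ± 295 to 118754 ± 5231 with ConA (log2 5.01, adjusted p = 1.17e-16). The other fall with PMA was USP18 (log2 -1.09), which removes ISG15 from proteins and was named after its value was seen. USP18 was also called higher with ConA (log2 4.86).

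Genes that cut, edit or unwind double-stranded RNA had 2 of 23 lower with PMA and 6 of 23 higher with ConA (list medians 0.03 and 0.02). OAS1, which makes the activator of RNase L, fell from 1099.5 ± 19.4 to 276 ± 21.8 with PMA (log2 -1.99, adjusted p = 6.45e-10), and OAS2, named after its value was seen, was the other fall (log2 -1.48). Like TLR3, both were called higher with ConA (log2 3.88 for OAS1 and 4.03 for OAS2). OASL, a relative without the enzyme activity, rose from 638 ± 44.2 to 37348 ± 1474 with ConA (log2 5.87, adjusted p = 2.43e-17). Cytosolic DNA sensing had 1 of 23 higher with PMA, a share near the background of 4.03%, and 6 of 23 with ConA, against 5.83% (medians 0.10 and 0.10). CGAS, the synthase that answers cytosolic DNA, rose with PMA from 109.7 ± 1.19 to 253 ± 14.1 (log2 1.198, adjusted p = 7.52e-07). CGAS was also called higher with ConA (log2 1.80), and the difference between the agents (-0.60) was not called. The steepest rise with ConA was that of SAMHD1, a dNTP hydrolase, from 1755 ± 49.9 to 12417 ± 344 (log2 2.82, adjusted p = 4.97e-15).

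Endosomal Toll-like receptors and their trafficking had 2 of 17 higher with PMA and 6 of 17 with ConA (medians -0.16 and 0.47). Backgrounds were 4.03% and 5.83%, and the count with PMA is too small to set the list apart. The protease CTSS rose with both, from 80.04 ± 1.17 to 373 ± 34.2 with PMA (log2 2.203, adjusted p = 6.50e-09) and from 68.5 ± 8.88 to 4799 ± 952 with ConA (log2 6.10, adjusted p = 3.27e-14). IRAK2, a kinase of the Toll-like receptor pathway named after its value was seen, was the other rise with PMA (log2 1.25) and was also called higher with ConA (log2 1.60). Effectors of ZBP1 and PKR had 1 of 13 higher with PMA and 2 of 13 with ConA, counts too small to set against 4.03% and 5.83% (medians 0.25 and -0.10). PPP1R15A (GADD34), which reverses eIF2alpha phosphorylation, rose with PMA from 6032 ± 74.4 to 20315.5 ± 164 (log2 1.75, adjusted p = 7.80e-12). MLKL, the executioner of necroptosis downstream of ZBP1, rose with ConA from 1286 ± 4.22 to 3769 ± 209.6 (log2 1.55, adjusted p = 1.96e-11), and the other rise was ATF3 (log2 1.07), a stress-response factor named after its value was seen. RIPK3 was not among the 13 genes tested in this list.

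In the direct comparison of the agents, 6.9% of all genes tested were called with the lower change under PMA and 3.73% with the higher. The change with PMA was the lower one for 6 of 23 genes of double-stranded RNA handling, led by OASL (-6.24, adjusted p = 4.65e-18), and for 7 of 26 receptor modulators, led by ISG15 (-6.15, adjusted p = 2.55e-18). The same held for 5 of 23 genes of DNA sensing (SAMHD1, -3.46) and 4 of 16 of the endosomal list (LAMP3, a lysosomal membrane protein, -6.05). Calls for 1 of 20 kinases and scaffolds (CASP8, -1.04) and 1 of 13 effectors (ATF3, -1.14) were too few to set apart from 6.9%. CASP8 was not called under quantile normalization or without PMA library 2, ConA control library 6 or ConA library 2. The opposite direction was called for 1 of 26 modulators, RNF125 (1.39), a ubiquitin ligase for RIG-I, a share near the background of 3.73%. It was also called for 2 of 13 effectors, a small count, led by PPP1R15A (1.89, adjusted p = 1.52e-14) with DDIT3 (1.06, named after its value was seen).

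**Figure D5:**
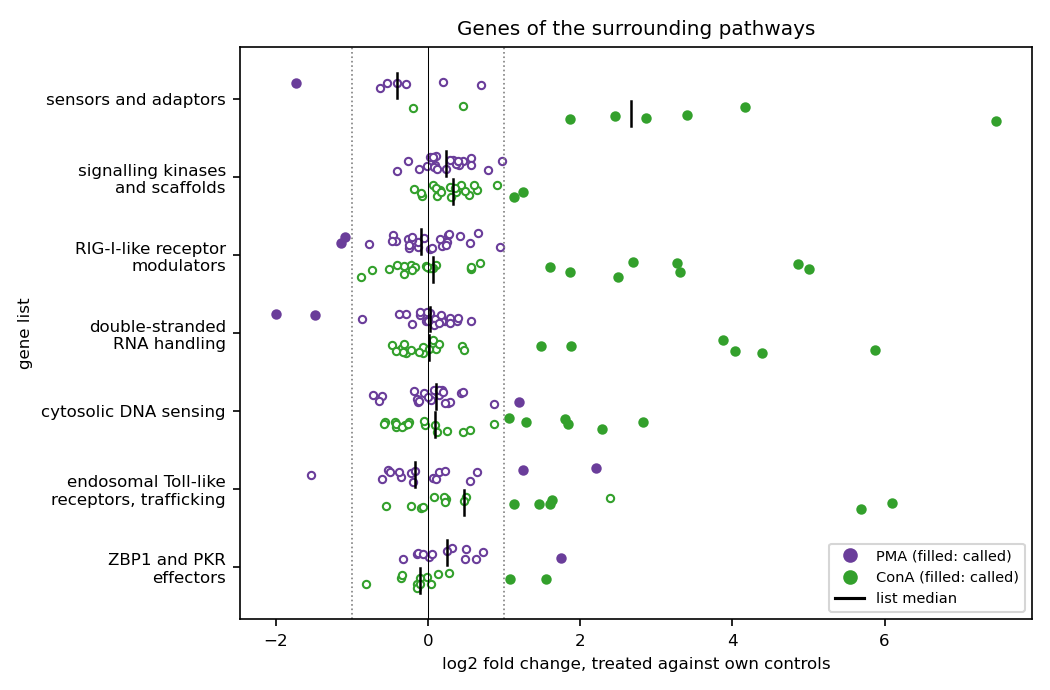
Log2 fold change of every tested gene of the sensors and 6 surrounding lists, with PMA (purple) and ConA (green), filled where called and with the list median as a bar. With ConA the medians of the 6 lists run from -0.10 to 0.47, below that of the sensors and adaptors (2.66). That median counts ZBP1, which was tested only through its ConA libraries.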

How the data were processed

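Polyadenylated RNA was sequenced by a service company, and the authors deposited 1 table per experiment. The signal values deposited are normalized counts per gene symbol, not divided by length. The submitters' processing notes name Partek, STAR, Bowtie2 and DESeq2 and the builds hg19 and mm10, without roles. Each library's divisor was sought among its low values (5 to 60). The best one turned 81.6% to 83.9% of them into whole numbers, within 0.05, so no test on whole read counts was run. Estimated reads (value times divisor) were used for depth, for the ZBP1 ratio and for voom as an alternative, and precision otherwise rests on the spread between 3 libraries.

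Genes with a mean of at least 10 over a table's 6 libraries were tested with limma 3.58.1 in R 4.3.3 on log2(value + 1), with moderated variances and a trend, and Benjamini-Hochberg adjustment over all genes. Treatment differences were fitted over 12 libraries. Levels per kb used the longest principal transcript of GENCODE v29, and promoters came from RefSeq (GRCh38.p14), neither the build of the notes. Members, the 6 pathway lists and the marker lists were chosen with earlier results of these data known. Named genes were all members, the largest rise and fall called in each list and comparison, and the 3 genes nearest to each member in profile. Alternatives covered pseudocount, minimum, threshold, normalization, centring, variance trend, voom, block, a joint fit and leaving out each library. Figures were drawn with Python 3.11.15.

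Marker sums of the remaining lists, in normalized counts, controls then treated, were as follows. For PMA, mesenchymal genes had 638900 to 664900 and 652500 to 683700, B and plasmacytoid dendritic cell genes (3 of 12 listed) 388 to 498 and 806 to 892, myeloid genes (8 of 14) 5332 to 5789 and 7626 to 7846, and epithelial genes (4 of 12) 730.3 to 851 and 658 to 731. For ConA, mesenchymal genes had 804300 to 883600 and 629100 to 681600, B and plasmacytoid dendritic cell genes (4 of 12) 212 to 268 and 463 to 489, myeloid genes (6 of 14) 6203 to 6629 and 17600 to 20820, mostly CD68, and epithelial genes (9 of 12) 649 to 695 and 462 to 559.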

Additional observations from a re-analysis of the deposited data

Results flagged for a closer look

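For 5 sensors the effects of the 2 agents differed by a direct test of the difference (limma over all 12 libraries, change with PMA minus change with ConA, log2). The differences were -4.80 for IFIH1, -4.19 for TLR3, -3.81 for DDX58, -3.41 for DHX58 and -2.15 for EIF2AK2. Agent and experiment cannot be told apart in them.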

How the results depend on the processing

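Each member kept its direction and its side of the call in all 393 combinations of a member and comparison with an alternative. Without the variance trend 867 genes were called with PMA in place of 1310, 662 with ConA in place of 1318, and 1 member in place of 5 passed the adjusted p at any fold with PMA. The other scalings left that count at 5. It ranged from 2 to 6 when 1 library was left out: 2 without PMA control 1, PMA 2 or PMA 3, and 3 without PMA 1. At an adjusted p of at most 0.05 it was 7. For the smaller changes with PMA the highest adjusted p over all alternatives was 5.90e-04 for DDX58, 7.34e-04 for IFIH1, 2.40e-04 for DHX58, 1.53e-04 for TICAM1, 0.0281 for EIF2AK2 and 0.494 for MAVS, and 3.37e-05 for TLR3, while the log2 change ranged from -0.52 to -0.39 for DDX58, -0.76 to -0.59 for IFIH1 and -0.66 to -0.49 for DHX58. Leaving out 1 library gave 1107 to 1250 genes called with PMA, 1122 to 1417 with ConA and 1412 to 1572 for the difference. Of the genes called for the difference, 547 were higher and 1012 lower, and 330 and 1383 with voom on estimated reads. Replicate numbers 1 to 3 of the PMA experiment showed no sign of pairing. The correlations of deviations were -0.201, 0.266 and 0.014 for like numbers and -0.34 to 0.268 for unlike ones. With 3 libraries in a group this check cannot exclude pairing. With the replicate block 1264 genes were called with PMA and 5 members passed the adjusted p. No paired analysis was possible for ConA because its groups share no replicate number. Each TLR3 value with PMA rests on about 80 estimated reads and each ZBP1 control on about 1, so depth limits their precision.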

Other observations

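For each member listed in both experiments, the 3 genes with the most similar profile were found by the root mean square difference of log2(value + 1) over the 12 libraries, each library set against the mean of the controls of its own experiment, among 14660 other genes. This is a description with no test. TLR3 had the least close neighbours: PARP9 (0.248), IRF1-AS1 (0.295) and HEPH (0.313). PARP9, an interferon-induced ADP-ribosyltransferase, had a log2 change of -1.40 with PMA and 2.73 with ConA, and HEPH, a copper-containing ferroxidase, had -1.30 and 2.56. DDX58 lay nearest to GBP1 (0.0523), a guanylate-binding protein, then to the complement protease C1S (0.0923) and the helicase DDX60 (0.109). IFIH1 lay nearest to IFI30 (0.166), a lysosomal thiol reductase, the somatostatin receptor SSTR2 (0.200) and OAS3 (0.216).

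DHX58 had IFI35 (0.0903), SAMHD1 (0.0945) and PARP14 (0.145) as its neighbours, and EIF2AK2 had ZNFX1 (0.0804), NFE2L3 (0.0914) and STAT2 (0.103), a subunit of ISGF3. The adaptors, whose own changes were small, had other neighbours: EHBP1L1 (0.0371), GOLGA3 (0.0437) and MLXIP (0.0459) for MAVS, and ETV3 (0.0504), RUBCN (0.0529) and STX3 (0.0581) for TICAM1. Genes with small changes lie close together by construction, so these distances cannot be ranked against those of the sensors.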
